A study of Mus musculus with 6 samples.

Results

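The genes studied here are the protein-coding neighbours of Neu4 on mouse chromosome 1. They were taken by position alone: every protein-coding gene of the deposited table with a start within 10 Mb of the Neu4 start on either side, with Neu4, Col6a3, Kcnj13 and Per2 left out, which gave 122 of the 30462 genes listed. Of these, 113 lie on the proximal side and 9 on the distal side. The series measured RNA in 6 samples of cochlea, the coiled part of the inner ear that detects sound, from mice at postnatal day 7. The 3 KO samples (replicates 2, 4 and 5) carry the genotype label NEU4 KO and the 3 WT samples (replicates 3, 4 and 5) the label WT, with no treatment in either group. The labels give neither the strain, the sex, the way the mutation was made, nor whether samples are separate animals, so the p-values cover the spread among these 6 samples.

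Neu4 encodes a sialidase, an enzyme that takes sialic acid off glycoproteins and glycolipids. DNA close to a mutated gene tends to be inherited together with it. In a comparison of a mutant line with wild-type mice, the genes next to the mutated one can therefore be compared as a set of their own, set apart from genes elsewhere in the genome. The stretch around Neu4 holds genes of unlike function, among them Otos, which encodes otospiralin, a small protein secreted by fibrocytes of the inner ear.

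Neu4 itself (ENSMUSG00000034000, chromosome 1, 94020451 to 94028334, plus strand, GRCm38) was close to the detection limit. Its FPKM (fragments scaled by exon length and library size) was 0.0518, 0.102 and 0.0853 in the 3 KO libraries and 0.0523, 0.10035 and 0.0810 in the 3 WT libraries. Each group held 18 Neu4 fragments in all, and p was 0.8 by exact permutation (two-sided), where 3 against 3 samples cannot go below 0.1. The level of Neu4 RNA thus does not check the genotype labels, and KO below means the libraries labelled KO.

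The libraries held between 15170973 and 17192293 fragments, as recovered from the FPKM values and the exon lengths. Markers of cochlear cell types were found in all 6 libraries, although the outer hair cell gene Slc26a5 was at or near 0, and their sums were mostly higher in KO. The summed FPKM was 20.8 to 23.5 in KO and 17.7 to 19.0 in WT for hair cells, 201 to 226 in KO and 183 to 190 in WT for supporting cells, and 69.3 to 74.7 in KO and 59.9 to 63.5 in WT for the stria vascularis, all without overlap. For spiral ganglion neurons it was 91.1 to 114 in KO and 67.3 to 95.3 in WT, with overlap. Sox2, among the 4 supporting cell markers, went the other way without overlap. It had 6.89, 8.19 and 7.98 FPKM in KO against 9.13, 11.1 and 8.21 in WT (log2 -0.26, adjusted p = 0.270, limma). Of all these cochlear markers, Esrrb (stria) and Calb2 (spiral ganglion) were called, both higher in KO (adjusted p = 0.0456 and 0.0425, limma). The summed FPKM of 6 skeletal muscle markers was 26.9 to 213.8 in KO and 115 to 505 in WT, and that of 5 middle ear epithelium markers was 10.6 to 101 in KO and 364 to 658 in WT. In WT most of the middle ear sum was Bpifa1, at 336, 608 and 402 FPKM, against 0.0777, 8.34 and 93.3 in KO. Ltf overlapped between the groups, and no middle ear marker was called. The sum of 4 adipocyte markers was 4.51 to 11.3 in KO and 14.4 to 29.8 in WT, while 4 neutrophil markers summed to 77.2 to 133 in KO and 26.2 to 65.4 in WT. Xist and Ddx3y showed 2 female and 1 male library in KO and 1 female and 2 male libraries in WT, so each group holds RNA of more than 1 animal.

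No gene of this stretch passed the test, and the share of tested members with a small p was not above that of all genes tested. Of the 122 members, 70 met the level limit, an FPKM of 1 or more in 3 or more libraries, and were tested on log2(FPKM + 1) in the fit over all genes (limma). None of the 70 passed a Benjamini-Hochberg adjusted p of 0.05, against 0.334% of all 14072 genes tested (47 genes, 18 higher and 29 lower in KO). At an unadjusted p under 0.05 there were 9 members (12.9%), 7 higher and 2 lower in KO, against 17.6% of all genes tested. Of the 2 lower, Mroh2a passed the FPKM limit through its WT libraries alone, so that its groups had to differ in level. A fit of the recovered fragments with voom (limma), which models their counting error, called 2 of the 70 members, Otos and Cab39, against 2.94% of all genes it tested.

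The median log2 fold change of the 70 members, KO over WT, was 0.04, against 0.02 over all genes tested, and the median absolute log2 fold change was 0.075 against 0.088. The 95% interval of the fold change lay within 1.5-fold in both directions for 66 of the 70 members. The 4 members with wider intervals were Otos, Ecel1, Dnajb3 and Nppc. These bounds are on the log2(FPKM + 1) scale, which understates the change of low genes. With voom, which works on log2 fragments scaled to library size, 64 of 70 intervals lay within 1.5-fold. Both speak only for genes above the FPKM limit.

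**Figure D1:**
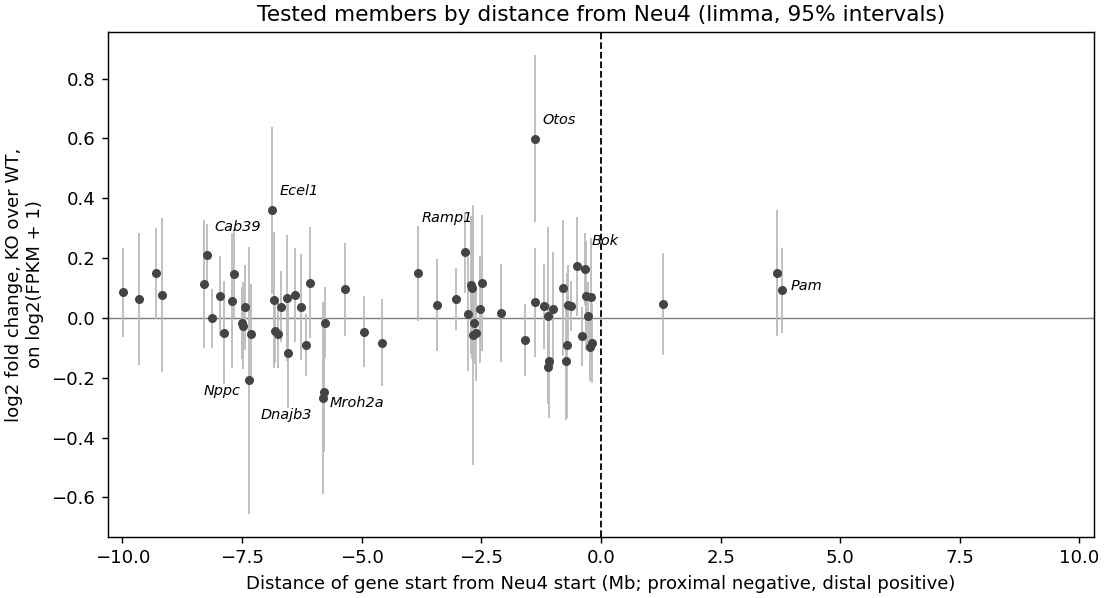
Each point is 1 of the 70 tested members, with the distance of its start from the Neu4 start on the x axis (Mb, proximal negative) and the log2 fold change, KO over WT, on log2(FPKM + 1) on the y axis. Bars are 95% intervals (limma, 3 libraries each) and the dashed line marks Neu4. Otos stands highest at 0.60, and most other points lie close to 0 at every distance.

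Among tested members, the sizes differed little between distance classes. Within 1 Mb of Neu4, 13 of 22 members were tested, with a median absolute log2 fold change of 0.084 and 2 members at an unadjusted p under 0.05. Between 1 and 2 Mb there were 9 tested members (median absolute log2 fold change 0.052, 2 at an unadjusted p under 0.05), between 2 and 5 Mb 17 (0.064, 1) and between 5 and 10 Mb 31 (0.074, 4). Beyond the limit, the 74 protein-coding genes tested between 10 and 20 Mb had a median of 0.084, with 13 at an unadjusted p under 0.05. Across the 70 tested members, which share the same 6 libraries, Spearman's rho between distance and absolute log2 fold change was 0.017. The distal side is sparse in genes: 3 of its 9 members were tested, all within 5 Mb. Within 1 Mb, 9 members lay under the FPKM limit and are absent from these classes (Crocc2 and Mab21l4 are described below). The median absolute log2 fold change within 2 Mb was 0.0750 in the main fit and 0.0956 with voom. It was 0.109 in a voom fit that took in lower genes, at 10 fragments in at least 3 libraries.

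The groups did not overlap for 15 of the 70 tested members (21.4%), against 24.8% of all genes tested. In 8 of them (11.4%) KO was higher, against 15.2% of all genes, and in 7 (10%) KO was lower, against 9.54%. These 7 include Mroh2a, which passed the FPKM limit through its WT libraries alone. Of all protein-coding genes tested, the groups did not overlap in 25.9%, with 15.8% higher and 10.1% lower in KO. Among tested protein-coding genes of chromosome 1 outside the stretch the groups did not overlap in 30.2% of 606 genes, and on the other chromosomes in 25.7% of 11814 genes. The mean was higher in KO for 44 of the 70 members (62.9%), against 56.9% of all genes tested and 56.5% of the protein-coding ones. Among the 606 tested protein-coding genes of chromosome 1 outside the stretch it was higher in KO for 63.7%.

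**Figure D2:**
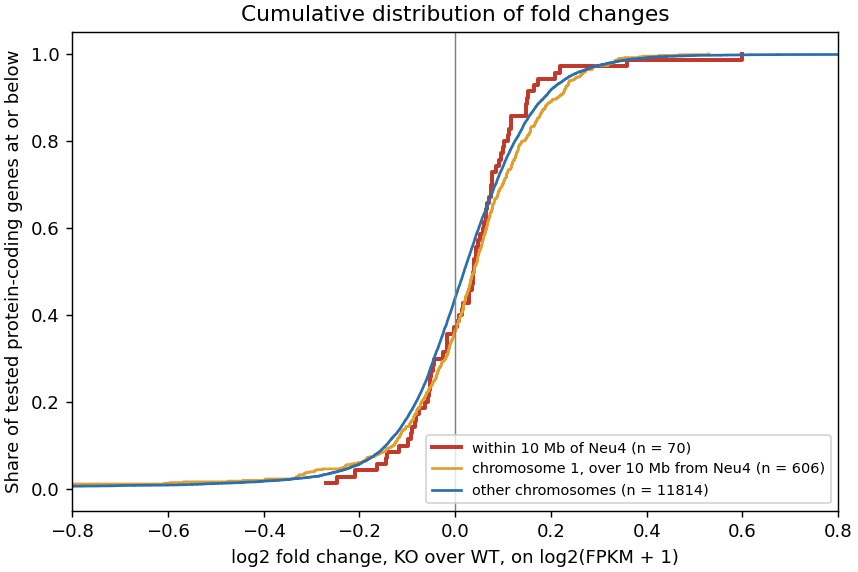
The x axis gives the log2 fold change, KO over WT, on log2(FPKM + 1), and the y axis the share of tested protein-coding genes at or below it. The 70 genes within 10 Mb of Neu4, the 606 others on chromosome 1 and the 11814 on other chromosomes run close together; a few genes outside the range of the x axis are not drawn.

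Otos had the largest log2 fold change and the smallest p of the 70 tested members. Otospiralin is made by fibrocytes of the spiral ligament and limbus, and mice without it have impaired hearing. Otos lies on the minus strand 1.38 Mb proximal of Neu4 (chromosome 1, 92644218 to 92648841, GRCm38). The promoters of Otos, of Cab39 (85793441 to 85851576, plus strand) and of Ramp1 (91179822 to 91225196, plus strand) are shown because these 3 genes had the smallest p of all members. Each line gives the 250 bases before the RefSeq start (GRCm38.p6), written 5′ to 3′ along the gene: chr1:92648842-92649091 on the minus strand for Otos, chr1:85793191-85793440 on the plus strand for Cab39 and chr1:91179572-91179821 on the plus strand for Ramp1. They are in lower case, with capitals on every match, on either strand, to the GC box core GGGCGG, the CCAAT box CCAAT or the TATA box TATAAA.
Otos: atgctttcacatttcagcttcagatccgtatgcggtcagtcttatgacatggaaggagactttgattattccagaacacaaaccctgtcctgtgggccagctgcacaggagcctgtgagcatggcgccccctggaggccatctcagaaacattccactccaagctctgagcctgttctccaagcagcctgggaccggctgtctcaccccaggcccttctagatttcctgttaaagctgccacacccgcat
Cab39: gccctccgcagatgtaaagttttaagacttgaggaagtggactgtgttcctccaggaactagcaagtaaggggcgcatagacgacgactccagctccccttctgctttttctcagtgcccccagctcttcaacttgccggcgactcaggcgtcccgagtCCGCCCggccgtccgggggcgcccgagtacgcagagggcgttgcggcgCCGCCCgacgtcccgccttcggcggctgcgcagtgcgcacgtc
Ramp1: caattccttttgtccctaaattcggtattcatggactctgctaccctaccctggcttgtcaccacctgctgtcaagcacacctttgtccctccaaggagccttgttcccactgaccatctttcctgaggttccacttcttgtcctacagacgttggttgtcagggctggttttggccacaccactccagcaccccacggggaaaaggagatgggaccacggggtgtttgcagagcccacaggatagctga

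The stretches before Otos and Ramp1 held none of the 3 motifs, and that before Cab39 held 2 GC box cores. The Otos and Ramp1 stretches held 5 and 4 CG dinucleotides, and the Cab39 stretch 27. In RefSeq 109 of the 122 members had a promoter entry (129 starts), of which 51.9% held the GC box core, against 32.7% of all 32851 starts. All starts were taken without a filter on gene type, while the members are protein-coding. The members' stretches were also richer in G and C, with a median GC share of 58.4% against 52.4% over all starts. Their median number of CG dinucleotides was 12 against 6. The CCAAT box was in 32.6% of the members' starts and 33.8% of all, and the TATA box in 9.3% and 12.4%. These matches describe letters and not binding.

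Otos had FPKM of 16.7, 14.4 and 11.4 in KO libraries 2, 4 and 5, against 8.79, 8.93 and 8.91 in WT libraries 3, 4 and 5. All KO values were above all WT values, and the KO libraries were spread out while the WT libraries nearly coincided. The means were 14.1 ± 2.65 in KO and 8.87 ± 0.0778 in WT (SD, n = 3 each), with a log2 fold change of 0.60 (SE 0.119, 95% interval 0.32 to 0.88, adjusted p = 0.0964, limma). Otos was called without KO replicate 5 (log2 0.74, adjusted p = 0.0145, limma) and with voom (log2 0.66, adjusted p = 0.0247), and its adjusted p was 0.0145 to 0.245 over the 6 fits that left out 1 library. The 3 fibrocyte markers, Otos included, summed to 161 to 175 FPKM in KO and 133 to 138 in WT, without overlap. Coch, the cochlin gene, averaged 58.1 ± 3.98 FPKM in KO and 48.2 ± 1.76 in WT (log2 0.26, adjusted p = 0.116, limma), and Pou3f4, a transcription factor gene of otic mesenchyme, 94.1 ± 4.37 in KO and 78.5 ± 1.38 in WT (log2 0.26, adjusted p = 0.0792, limma). In bulk tissue more fibrocytes and more Otos RNA per fibrocyte cannot be told apart, and the part that cell makeup had in the Otos value was not tested.

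Cab39 encodes a scaffold protein that activates the kinase LKB1, and it lies 8.23 Mb proximal of Neu4. It had 16.9, 17.5 and 18.01 FPKM in KO and 15.2, 15.2 and 14.5 FPKM in WT. The groups did not overlap, and the log2 fold change was 0.21 (SE 0.045, adjusted p = 0.116, limma; adjusted p = 0.0420 with voom). Ramp1, a partner subunit of the receptor for the peptide CGRP, lies 2.84 Mb proximal. It had 13.6, 13.0 and 12.6 FPKM in KO against 10.9, 10.6 and 11.9 FPKM in WT, again without overlap (log2 0.22, SE 0.058, adjusted p = 0.144, limma). Ecel1, a membrane peptidase gene of neurons, had 4.87, 6.33 and 5.48 FPKM in KO against 3.41, 4.70 and 4.25 FPKM in WT (log2 0.36, SE 0.118, adjusted p = 0.196, limma).

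**Figure D3:**
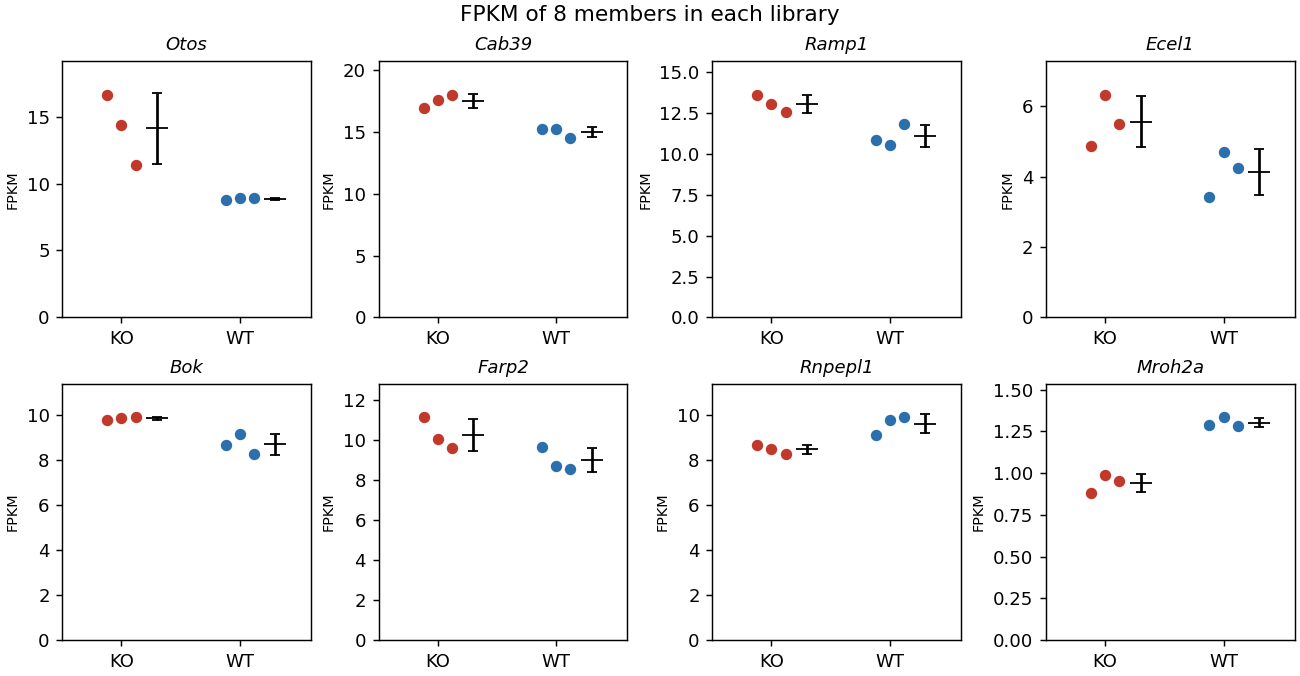
Each panel gives the FPKM of 1 member in every library, 3 KO libraries on the left and 3 WT libraries on the right, with the mean and SD beside the points. Otos, Cab39, Ramp1, Ecel1 and Bok are higher in every KO library than in any WT library, Rnpepl1 and Mroh2a are lower in every KO library, and Farp2 overlaps.

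Bok and Farp2, both within 1 Mb of Neu4, also had an unadjusted p under 0.05. Bok, a member of the BCL2 family of cell death regulators 0.335 Mb proximal of Neu4, had 9.79, 9.89 and 9.92 FPKM in KO against 8.69, 9.17 and 8.26 FPKM in WT. The KO libraries lay above the WT libraries by a log2 of 0.16 (SE 0.051, adjusted p = 0.181, limma). With voom its unadjusted p was 0.0678 (adjusted p = 0.293), and with the replicate block in limma 0.0838 (adjusted p = 0.445). Farp2, 0.508 Mb proximal, had 11.1, 10.04 and 9.59 FPKM in KO against 9.67, 8.71 and 8.57 FPKM in WT. Here the groups overlapped (log2 0.17, SE 0.071, adjusted p = 0.270, limma), and 19.4% of the Farp2 exon bases are also exon bases of Stk25 on the other strand. Ncl, which encodes the nucleolar protein nucleolin, averaged 43.7 ± 2.83 FPKM in KO and 39.4 ± 2.34 in WT, and Trip12, a ubiquitin ligase gene, 10.8 ± 0.784 in KO and 9.66 ± 0.481 in WT (SD, n = 3 each). Their log2 fold changes were both 0.15 (adjusted p = 0.283 and 0.290, limma), and both 0.10 without KO replicate 5.

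No member with a lower mean in KO was called either. Rnpepl1, an aminopeptidase-like gene 1.11 Mb proximal of Neu4, had 8.70, 8.49 and 8.26 FPKM in KO against 9.14, 9.82 and 9.93 FPKM in WT. The groups did not overlap (log2 -0.16, SE 0.051, adjusted p = 0.182, limma). Mroh2a had 0.883, 0.988 and 0.955 FPKM in KO against 1.29, 1.34 and 1.28 FPKM in WT (log2 -0.25, SE 0.086, adjusted p = 0.213, limma; log2 -0.47, adjusted p = 0.0580 with voom). It was the 1 member that passed the FPKM limit through its WT libraries alone, so that its groups had to differ in level. The other 6 members with the smallest p among those lower in KO were the co-chaperone gene Dnajb3 (log2 -0.27), the calpain gene Capn10 (-0.14), the mitochondrial ribosome factor gene Mterf4 (-0.14), the exchange factor gene Ngef (-0.12), the thymidylate kinase gene Dtymk (-0.10) and the lipid kinase gene Dgkd (-0.09), with adjusted p of 0.337 to 0.473 (limma). Of the Mterf4 exon bases, 35.2% are also exon bases of Sned1 on the opposite strand.

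The genes closest to Neu4 either had few fragments or were not called. Gal3st2c, a sulfotransferase gene that starts 29.9 kb proximal of Neu4, had 8, 9 and 8 fragments in KO and 8, 8 and 4 in WT, and Pdcd1, which encodes the T cell checkpoint receptor PD-1 and starts 17.9 kb distal, had 7, 10 and 3 in KO and 14, 10 and 7 in WT. The 4 nearest tested members on the proximal side were Dtymk, Atg4b, Ing5 and D2hgdh. Dtymk had 22.2, 20.4 and 21.7 FPKM in KO, just below the 22.5, 22.6 and 23.9 FPKM in WT (log2 -0.10, or -0.06 without KO replicate 4). D2hgdh, which encodes an enzyme that clears D-2-hydroxyglutarate, had 5.27, 5.15 and 5.50 FPKM in KO and 5.86, 5.38 and 5.82 in WT, with overlap (log2 -0.08, adjusted p = 0.485, limma). Ing5, a subunit of histone acetyltransferase complexes, averaged 4.21 ± 0.518 FPKM in KO and 3.95 ± 0.103 in WT (log2 0.07, but 0.03 without KO replicate 2 or 4 and 0.16 without KO replicate 5), and the autophagy protease gene Atg4b 8.27 ± 0.318 in KO and 8.24 ± 0.120 in WT (SD, n = 3 each). The Atg4b log2 fold change was 0.0048 (95% interval -0.11 to 0.12), and its sign turned with median-ratio scaling, with quantile normalization, without KO replicate 5 and without WT replicate 3.

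On the distal side, Fam174a lay nearest among tested members, at 1.29 Mb, with 4.70 ± 0.238 FPKM in KO and 4.52 ± 0.405 in WT (log2 0.05, adjusted p = 0.773, limma). Its log2 fold change was 0.08 without KO replicate 4, 0.02 without KO replicate 5, 0.0078 without WT replicate 3, 0.03 without WT replicate 4 and 0.11 without WT replicate 5. Ppip5k2, a kinase gene of inositol pyrophosphate synthesis 3.69 Mb distal, had 2.19 ± 0.203 FPKM in KO and 1.87 ± 0.191 in WT (log2 0.15, or 0.10 without WT replicate 5; adjusted p = 0.423, limma). Pam, which encodes the enzyme that amidates peptide hormones, had 20.2 ± 1.52 FPKM in KO and 18.8 ± 0.599 in WT (log2 0.09, or 0.03 without KO replicate 5; adjusted p = 0.466, limma; n = 3 each). At the edges of the stretch, Pid1, just inside on the proximal side, had 7.56 ± 0.596 FPKM in KO and 7.06 ± 0.175 in WT, and Sphkap, just outside, 0.833 ± 0.115 in KO and 0.735 ± 0.0995 in WT. On the distal side Cntnap5b, the last member at 5.75 Mb, was listed at 0 in all KO libraries and at 0.0116, 0 and 0.0240 FPKM in WT, and Cdh20, just outside, had 0.464 ± 0.0212 FPKM in KO and 0.520 ± 0.0773 in WT. The nearest called protein-coding gene was Wdfy1, 14.3 Mb proximal and thus no member, with 3.73, 3.38 and 3.78 FPKM in KO against 8.02, 7.25 and 6.78 in WT (log2 -0.85, adjusted p = 0.00742, limma).

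By level, 4 members averaged an FPKM of at least 100, 25 lay between 10 and 100, 41 between 1 and 10 and 52 under 1. The most abundant member was Ptma, which encodes the chromatin protein prothymosin alpha, at 603 ± 11.9 FPKM in KO and 610 ± 26.3 in WT. Snorc, a proteoglycan gene of cartilage, had 163 ± 16.7 in KO and 155 ± 12.6 in WT, and Gpc1, which encodes the heparan sulfate proteoglycan glypican-1, 158 ± 11.5 in KO and 153 ± 4.57 in WT. Itm2c, a membrane protein gene, had 129 ± 1.22 FPKM in KO and 129 ± 4.76 in WT (SD, n = 3 each). In all 4 the difference was smaller than the larger SD. Hdlbp, which encodes the RNA-binding protein vigilin, had 75.3, 74.4 and 77.5 FPKM in KO against 74.1, 73.4 and 73.5 in WT, so that the groups stood apart by a log2 of 0.04 (0.02 without KO replicate 5; adjusted p = 0.605, limma).

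The members were also described in 12 lists by role, which held 82 of the 122 members, and none of the 49 tested members in them was called. These lists were made with earlier results of these data known, so the counts within them only describe the listed genes. Of 12 inner ear genes, 10 were tested, 7 with a higher and 3 with a lower mean in KO (median log2 0.08), and 3 had an unadjusted p under 0.05 (Otos, Ramp1 and Ecel1), beside 56.9% of all genes tested with a higher mean in KO and 17.6% with such a p. The summed hair cell, supporting cell and stria markers were also higher in KO without overlap (ranges above), although the supporting cell marker Sox2 was lower. The part of these cell types in the values of the inner ear genes was not tested. Espnl, an espin-like gene of hair cell stereocilia, had 2.02 ± 0.252 FPKM in KO and 1.82 ± 0.233 in WT, and Kif1a, a kinesin gene of axonal transport, 17.2 ± 1.69 in KO and 16.8 ± 1.29 in WT. Ackr3, a scavenger receptor of the chemokine CXCL12, had 26.8 ± 1.89 FPKM in KO and 24.1 ± 1.56 in WT (log2 0.15, adjusted p = 0.309, limma). Of 10 tested protein turnover genes 8 had a higher mean in KO (median log2 0.06), with the signalosome subunit genes Cops9 at 20.2 ± 2.13 in KO and 19.4 ± 1.07 in WT and Cops8 at 16.0 ± 0.947 in KO and 15.5 ± 1.11 in WT. Of 6 tested autophagy and cell death genes 5 had a higher mean in KO (median log2 0.05), the exception being the kinase gene Stk25 at 22.0 ± 0.308 in KO and 23.1 ± 0.765 in WT (n = 3 each; log2 -0.06, or -0.04 without WT replicate 3).

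Of 7 tested RNA and translation genes 3 had a higher mean in KO (median log2 -0.04), and of 6 tested membrane traffic genes 4 did (median log2 0.05), among them the small GTPase gene Arl4c at 12.4 ± 0.349 FPKM in KO and 11.6 ± 0.988 in WT, while Sh3bp4, an adaptor gene of endocytosis, had 15.2 ± 0.447 in KO and 15.7 ± 0.735 in WT. Of 4 tested neuronal genes 2 had a higher mean in KO (median log2 -0.04), among them the Notch ligand gene Dner at 9.17 ± 0.922 in KO and 8.73 ± 0.978 in WT. Of 3 tested muscle genes 2 had a higher mean (median log2 0.02), among them the ubiquitin ligase adaptor gene Asb1 at 3.40 ± 0.242 in KO and 3.07 ± 0.456 in WT and the deacetylase gene Hdac4 at 2.05 ± 0.0362 in KO and 2.02 ± 0.0352 in WT. In the glycan list (2 tested) and the list of secretory and peptide enzymes (2 tested) both tested genes had a higher mean in KO (median log2 0.05 and 0.12), with B3gnt7, a glucosaminyltransferase gene, at 8.65 ± 1.246 in KO and 8.22 ± 0.344 in WT. The 1 tested immune gene, the phosphatase gene Inpp5d, had 4.98 ± 0.337 in KO and 4.67 ± 0.255 in WT (SD, n = 3 each).

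The nuclear body genes and the intestinal enzyme genes had no tested member. Sp100, a nuclear body gene induced by interferon, had 0.991 ± 0.126 FPKM in KO and 0.872 ± 0.0720 in WT, and its relative Sp110 0.569 ± 0.139 in KO and 0.591 ± 0.0652 in WT. The intestinal phosphatase gene Akp3 was at or under 0.0572 in KO and 0.111 in WT, and the liver enzyme gene Agxt was above 0 in KO replicate 5 alone, at 0.0388. Of the other sialidase genes, Neu2 lies in this stretch, 6.51 Mb proximal of Neu4, and had 2, 1 and 0 fragments in KO and 4, 3 and 1 in WT, too few to compare.

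The 52 members under the FPKM limit were described by their fragments. In 22 of them no library reached 10 fragments, and 17 were at 0 in at least 1 library. The groups did not overlap for 9 of the 52 (17.3%), 4 higher and 5 lower in KO, against 13.5% of the untested protein-coding genes and 8.4% of all untested genes. Some of the 9 rest on very few fragments. Spata3 had 1, 2 and 6 in KO and Olfr1410 had 3, 1 and 2, both with 0 in every WT library. Ugt1a6b had 0 in every KO library and 1, 2 and 2 in WT. A voom fit with a limit of 10 fragments in at least 3 libraries, added after the data were seen, took in 23 of the 52 and called none of them. An unadjusted p under 0.05 was found for 6 of the 23. Of these, Chrng passed the limit of 10 fragments through its WT libraries alone, so that its groups had to differ in level. Among all 93 members that the fit took in, tested ones included, 17 had such a p, close to the 18.3% of all genes in that fit. That 18.3% covers genes of every level and is no like measure for the 23 low members. The same fit called Otos and Cab39 again, against 2.07% of all its genes.

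Crocc2, a gene related to the ciliary rootlet protein rootletin 0.852 Mb proximal of Neu4, had 50, 61 and 65 fragments in KO against 87, 148 and 80 in WT. All KO values lay below all WT values (log2 -0.77, SE 0.247, adjusted p = 0.128, voom). Its neighbour Mab21l4, 0.869 Mb proximal, had 2, 4 and 2 fragments in KO against 8, 12 and 9 in WT, too few for the fit. Twist2, a transcription factor gene of mesenchyme, had 12, 13 and 8 fragments in KO against 19, 18 and 19 in WT, also without overlap (adjusted p = 0.290, voom), and 46.5% of its exon bases are shared with a gene on the opposite strand. Chrng, the gene of the fetal muscle acetylcholine receptor subunit gamma, had 8, 7 and 9 fragments in KO against 19, 16 and 48 in WT (adjusted p = 0.155, voom), and Chrnd, its subunit delta, 3, 0 and 11 in KO against 6, 20 and 70 in WT (adjusted p = 0.238, voom). Chrng entered that fit through its WT libraries alone, so that its groups had to differ in level. Chrnd and Chrng were highest in WT replicate 5, which also had the highest sum of skeletal muscle markers (505), and lowest in KO replicate 4, which had the lowest (26.9); the part of muscle tissue in these values was not tested.

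Distal of Neu4, St8sia4 at 1.57 Mb encodes a polysialyltransferase, an enzyme that adds chains of sialic acid. It had 142, 166 and 136 fragments in KO against 124, 123 and 93 in WT, all KO values being above all WT values (log2 0.42, SE 0.143, adjusted p = 0.152, voom). D1Ertd622e at 3.59 Mb had 470, 460 and 346 fragments in KO against 381, 347 and 310 in WT, with overlap (log2 0.32, adjusted p = 0.135, voom). Gin1 at 3.75 Mb had 100, 89 and 94 fragments in KO and 78, 88 and 67 in WT, without overlap (log2 0.31, adjusted p = 0.343, voom). On the proximal side, Ugt1a7c, a glucuronosyltransferase gene 5.93 Mb from Neu4, had 69, 63 and 50 fragments in KO against 33, 46 and 53 in WT, with overlap (log2 0.51, adjusted p = 0.270, voom).

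**Figure D4:**
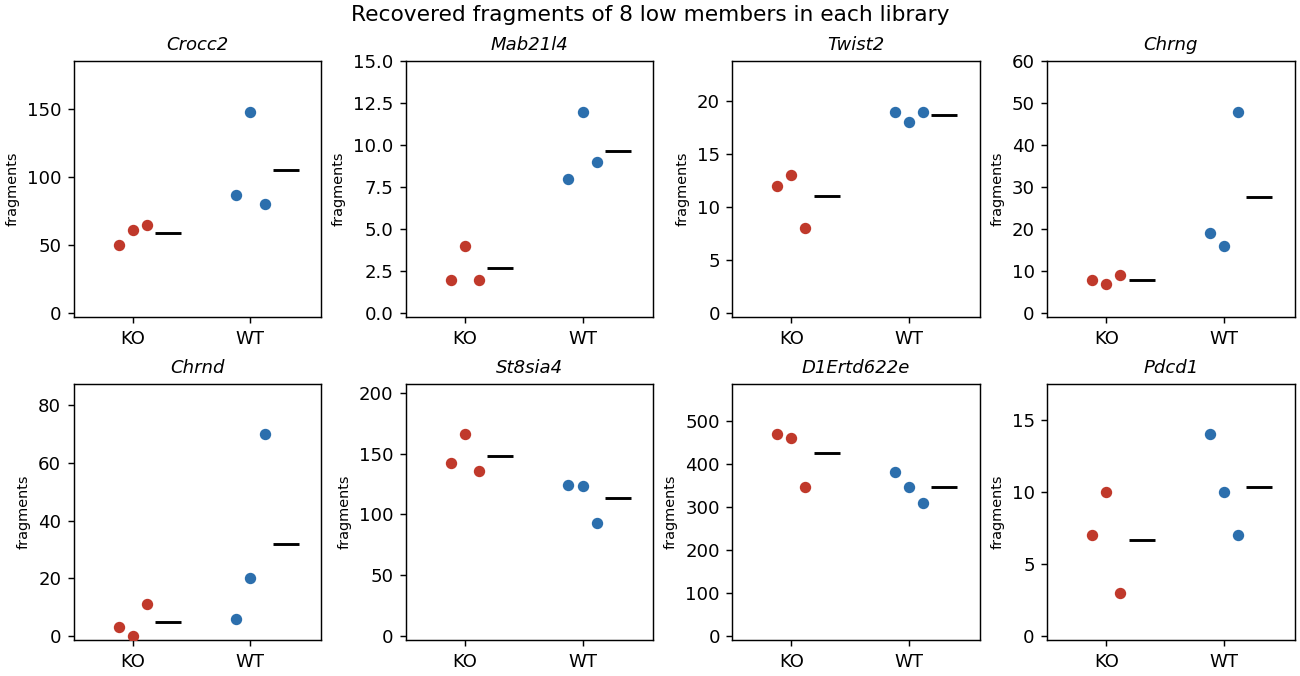
Each panel gives the recovered fragments of 1 low member in every library, 3 KO libraries on the left and 3 WT libraries on the right, with a dash at the mean. Crocc2, Mab21l4, Twist2 and Chrng are lower in every KO library than in any WT library, St8sia4 is higher in every KO library, and Chrnd, D1Ertd622e and Pdcd1 overlap.

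Some members cannot be counted cleanly. Of 121 members with a GENCODE M21 transcript, 15 share over 20% of their 75-base stretches with another gene. Gal3st2b shares 79.0% and Gal3st2 65.7% with the other copies of that family, and Ugt1a6b, Ugt1a7c and Ugt1a6a share 74.8%, 52.5% and 51.2% with each other and further Ugt1a genes, which use common exons. Septin2, a cytoskeletal gene 0.541 Mb proximal of Neu4, was listed at 0.271, 0.222 and 0.124 FPKM in KO and 0.220, 0.153 and 0.204 in WT. GENCODE M21 holds a second gene record on the same strand that covers 41.8% of its exon bases, so that these values may not give its level. Exons of 36 members overlap those of a gene on the opposite strand, and the strand setting of the counting was not given in the sources used here.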

How the data were processed

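Per the labels, total RNA of the cochlea went into VAHTS Universal V6 libraries. What the authors deposited is a single FPKM table with 6 columns, 1 per sample. The build was GRCm38, per the submitters' processing notes; aligner, counting tool, strand setting and annotation were not given in the sources used here. FPKM times GENCODE M21 exon length, divided by the value of 1 fragment in that library (inferred from the table itself), was a whole number of fragments, within 0.01 fragment plus a relative 1e-06, in all 6 libraries for 98.3% of genes and for 118 of the 122 members; these fragments served the voom fits and the values printed as fragments. Since FPKM removes depth, low values can stand for very few fragments, which widens their error.

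The KO and WT samples were compared on log2(FPKM + 1) for genes at FPKM 1 or more in 3 or more libraries, with limma 3.58.1 (lmFit, eBayes with a trend; R 4.3.3), two-sided, with Benjamini-Hochberg adjustment over all genes tested; no test of deposited counts was possible. Members, lists and alternatives were chosen with earlier results of these data known. The rule for named genes took called members, the 8 higher and 8 lower with the smallest p, the 4 nearest tested members on each side, the genes at the limit and, per list, called members or the 2 most abundant; the genes described by fragments, and Ackr3, Espnl, Ptma, Septin2 and Wdfy1, were picked with their values in view. The settings varied were filters, pseudocounts, scalings and eBayes settings, protein-coding genes only, sex as a covariate, a replicate block, voom, leaving out each library and windows of 5 and 20 Mb. Promoters are RefSeq entries. Tables and plots used Python 3.11.15, pandas 2.3.3 and matplotlib 3.10.9.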

Additional observations from a re-analysis of the deposited data

How the results depend on the processing

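Members called (0) numbered 2 with voom on recovered fragments and 2 with the voom fit at 10 fragments (Otos and Cab39), and 0 to 1 when 1 library was left out (Otos without KO replicate 5). A window of 20 Mb gave 1 (Wdfy1), and the other alternatives run gave 0. Members with an unadjusted p under 0.05 (9) numbered 4 with the replicate block, 17 with voom at 10 fragments, 5 within 5 Mb, 22 within 20 Mb and 6 to 10 with 1 library left out. Genes called over the whole table (47) numbered 21 at FPKM 0.1, 103 at FPKM 5, 19 with no filter, 19 without the trend, 24 with sex as a covariate, 22 with the replicate block, 413 with voom, 355 with voom at 10 fragments, and 12 to 105 with 1 library left out (15 without KO replicate 2, 16 without KO replicate 4, 105 without KO replicate 5, 12 without WT replicate 3, 12 without WT replicate 4 and 21 without WT replicate 5). The members' median log2 fold change (0.0383) was 0.0167 with no filter, 0.0151 with median-ratio scaling, 0.0212 with quantile normalization, 0.00788 with the replicate block and 0.0210 to 0.0329 with 1 library left out. The median absolute log2 fold change within 2 Mb (0.0750) was 0.109 with voom at 10 fragments and 0.0621 to 0.10009 with 1 library left out. The Neu4 ratio, KO over WT (1.02), was 0.879 to 1.20 with 1 library left out. Folds were recomputed for 35 of the named genes, of which 8 low ones (Crocc2, Twist2, St8sia4, Chrng, Chrnd, Gin1, D1Ertd622e and Ugt1a7c) entered 2 alternatives each and were not refitted with a library left out. Among these genes and alternatives the sign changed for Atg4b, which was -0.0176 with median-ratio scaling, -0.0165 with quantile normalization, and -0.0221 to 0.0262 with 1 library left out. The cause of these moves was not tested.

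KO and WT samples share only the numbers 4 and 5, which the labels do not say pair them (correlation of deviations 0.141 and 0.150). In the replicate block fit, KO replicate 2 and WT replicate 3 had no partner, so its fold changes rest on replicates 4 and 5 alone. Members under the FPKM limit rest on few fragments, so differences there may not be detectable at this depth.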
